A study of Mus musculus with 7 samples.

Results

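A set of 9 genes of regulated vesicle exocytosis were followed in the lung tumors of 4 mice: Syt1, Snap25, Stx1a, Vamp2, Syp, Unc13a, Cadps, Rims1 and Rims2. They were chosen by symbol, though with earlier results of these data known, and all 9 were found in each of the 4 deposited count matrices, out of 56941 genes. All 9 also passed the filter on low counts in tumor-like nuclei. No member passed the edgeR test between RPC and RP tumors, a comparison of 2 animals with 2 in which no gene at all passed, and the widest difference was that of Unc13a, which stood at 138 CPM in RPC and 224 in RP (CPM are counts scaled to the total of the sample). Mitotic nuclei, so named by their transcripts of 30 mitotic genes, were compared with non-mitotic nuclei of the same tumor. In them 6 of the 9 were called lower, with Snap25 in the lead, while 15.8% of all genes were called lower.

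Regulated exocytosis releases the content of synaptic vesicles and of hormone-filled dense-core granules when calcium enters a cell. A vesicle SNARE protein winds around SNARE proteins of the plasma membrane and pulls the membranes together, priming factors make the vesicle ready, scaffolds of the active zone hold it near calcium channels, and a synaptotagmin senses the calcium. Small cell lung cancer is a neuroendocrine tumor, and neuroendocrine cells of the lung store peptides and amines in dense-core granules. Synaptophysin, the product of Syp, is a routine stain for such tumors.

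Single-nucleus RNA sequencing was carried out on frozen primary lung tumors of 4 male mice, RP1, RP2, RPC1 and RPC2, with 2 animals per genotype. RP animals are labelled Rb1 fl/fl and Trp53 fl/fl, and RPC animals carry both of these alleles and in addition Casp8-/-. By the methods of the study the Casp8 allele is conditional as well, and in all 4 animals the floxed alleles were recombined by inhaled adenoviral Cre under the CMV promoter, which is not restricted to one cell type. The 7 labelled libraries each pool nuclei of all 4 animals, which the first barcoding well tells apart, so the animal was the replicate. Casp8 itself was not lower in RPC (58.9 and 60.9 CPM in the RP animals, 88.9 and 66.4 in the RPC animals), but counts per gene do not separate deleted exons from the rest and so check nothing, and both genotype names stand for the labels alone. The matrices held 32299909 to 72446861 transcripts per animal, more in both RPC animals than in both RP animals, and 8363 to 10853 nuclei per animal passed the filters, 38254 in all, with 2223 to 3392 transcripts in the median nucleus. No barcode was shared between animals. Clusters without raised markers of other cell types were called tumor-like, if their neuroendocrine markers lay above the median of the clusters named otherwise. They held 7122, 7247, 9219 and 8676 nuclei, in the order RP1, RP2, RPC1, RPC2, which is kept for every list of 4 values. Of 16 neuroendocrine markers, 15 had at least 100 transcripts in the tumor-like nuclei of every animal. Neither the members nor other exocytosis genes were used to cluster or name nuclei.

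The RefSeq promoter table (GRCm38.p6) matched 6 of the 9 members by symbol: Syt1, Stx1a, Syp, Unc13a, Cadps and Rims1. The table had no entry for Snap25, Vamp2 and Rims2. Shown here are the 250 bases before the start of Stx1a, Unc13a, Syt1 and Cadps, the members with an entry among those that were lower together in mitotic nuclei. They lie at chr5:135023232-135023481 on the plus strand, and on the minus strand at chr8:71671758-71672007, chr10:109010976-109011225 (the upstream one of a pair of entries) and chr14:12823080-12823329. The GRCm39 annotation has Cadps on the plus strand. Each is written 5′ to 3′ along the gene. Capitals mark matches, on either strand, to any of 5 motifs that were searched. One is the box of Sp factors, spelled GGGCGG. Another is the box of the factor NF-Y, spelled CCAAT. The TATA box was searched as TATAAA. An E-box bound by bHLH factors was searched as CAGCTG. The full cAMP response element was searched as TGACGTCA.
Stx1a: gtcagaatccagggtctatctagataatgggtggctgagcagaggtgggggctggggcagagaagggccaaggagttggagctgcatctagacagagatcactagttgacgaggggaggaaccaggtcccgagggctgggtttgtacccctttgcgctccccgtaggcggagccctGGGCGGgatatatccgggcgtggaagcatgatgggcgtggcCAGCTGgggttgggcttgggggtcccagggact
Unc13a: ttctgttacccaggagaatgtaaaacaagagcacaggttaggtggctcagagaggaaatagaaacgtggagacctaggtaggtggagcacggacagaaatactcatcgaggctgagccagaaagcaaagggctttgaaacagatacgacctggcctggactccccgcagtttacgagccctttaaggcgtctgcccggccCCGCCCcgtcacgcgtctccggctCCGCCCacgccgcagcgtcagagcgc
Syt1: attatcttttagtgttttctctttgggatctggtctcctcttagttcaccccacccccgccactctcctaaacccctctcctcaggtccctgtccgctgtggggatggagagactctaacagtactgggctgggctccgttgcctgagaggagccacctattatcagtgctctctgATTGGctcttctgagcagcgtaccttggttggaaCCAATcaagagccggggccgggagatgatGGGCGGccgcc
Cadps: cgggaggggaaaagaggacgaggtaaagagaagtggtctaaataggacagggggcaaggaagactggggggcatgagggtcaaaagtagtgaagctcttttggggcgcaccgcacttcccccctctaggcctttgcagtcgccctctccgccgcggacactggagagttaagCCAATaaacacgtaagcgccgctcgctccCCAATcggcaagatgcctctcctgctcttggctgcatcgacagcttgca
The window of Unc13a held 2 matches to the Sp box, and those of Stx1a and Syt1 held 1 each. The NF-Y box occurred 2 times in the window of Syt1 and 2 times in that of Cadps, and Stx1a held 1 E-box. None of the 4 windows held the TATA box or the full cAMP response element. Of all 32851 promoters, in windows of this length, 32.7% held the Sp box and 33.9% the NF-Y box. The E-box was in 13%, the TATA box in 12.4% and the cAMP response element in 1.55%. No motif was common to all 4 windows, and a match describes letters, not a site in use.

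The first comparison asked whether the exocytosis genes differ between tumors with and without the Casp8 deletion. The counts of all tumor-like nuclei of an animal were added up and scaled by TMM. Syt1, the calcium sensor of fast release (chr10:108333505-108846856 in GRCm39), read 2084 and 1385 CPM in the RP animals and 1539 and 1964 in the RPC animals. The extreme values both belonged to RP animals, so the genotypes overlapped completely, and RPC differed from RP by 0.01 on the log2 scale (SE 0.27, edgeR adjusted p = 0.984). Snap25, which gives the plasma membrane SNARE complex a pair of its helices (chr2:136533580-136624362), read 317 CPM in RP1 and 332 in RP2 against 361 in RPC1 and 393 in RPC2. Both RPC animals were higher, by 0.22 on the log2 scale (SE 0.14, edgeR adjusted p = 0.482). Stx1a, the syntaxin that completes this complex at the plasma membrane (chr5:135052139-135079963), was scarce, with 19.3, 22.4, 22.4 and 24.8 CPM. RP2 and RPC1 could not be separated, and the difference (log2 0.18, SE 0.18) did not pass the test.

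On the vesicle side, Vamp2, the vesicle SNARE also called synaptobrevin 2 (chr11:68979316-68983210), read 35.6 and 24.6 CPM in the RP animals and 32.3 and 29.5 in the RPC animals. Syp, the gene of synaptophysin (chrX:7504710-7519499), read 60.1, 76.9, 65.1 and 67.2 CPM. In both genes the RPC animals lay between the RP animals, and the log2 fold changes were 0.04 (SE 0.23) for Vamp2 and -0.05 (SE 0.17) for Syp.

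Of the priming factors, Unc13a, the gene of Munc13-1, which opens syntaxin for SNARE assembly (chr8:72076694-72124685), had 235 and 213 CPM in the RP animals and 123 and 153 in the RPC animals. Both RPC animals were lower than both RP animals. The level was 224 ± 15.6 CPM in RP and 138 ± 21.1 in RPC (SD, n = 2 each), which is -0.70 on the log2 scale (SE 0.17). The unadjusted p was 0.00816 and the adjusted p 0.275 (edgeR), so Unc13a did not pass over all genes. Over 15 alternatives its log2 fold change ran from -0.84 to -0.54 and its adjusted p from 0.105 to 0.634. On the opposite strand Unc13a overlaps Colgalt1 (25.7 CPM) and Jak3 (8.98 CPM), and whether strand was used in counting is not given in the sources used here. The 62 better expressed genes within 2 Mb of Unc13a (average log2 CPM 3 or more) had a median log2 fold change of -0.32, against -0.07 for the 1061 genes tested on chromosome 8, and the part of this in the Unc13a value was not tested. Over the windows of the other members this median ran from -0.26 (Stx1a and Vamp2) to 0.41 (Cadps), with 0.26 at Snap25 and 0.14 at Rims2. Cadps, which primes dense-core granules (chr14:9646283-10097665), read 922, 718, 915 and 927 CPM. RP2 alone was low, and the log2 fold change of 0.17 (SE 0.19) did not pass.

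Both active zone scaffolds bind Rab3 on vesicles and recruit Munc13. Rims1 (chr1:22356133-22845686) read 217, 178, 184 and 239 CPM, with overlapping genotypes and a log2 fold change of 0.10 (SE 0.20). Rims2 (chr15:39060328-39549500) read 946 CPM in RP1 and 900 in RP2 against 1216 in RPC1 and 1017 in RPC2. Here both RPC animals were higher (log2 0.27, SE 0.17, adjusted p = 0.475, edgeR).

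**Figure D1:**
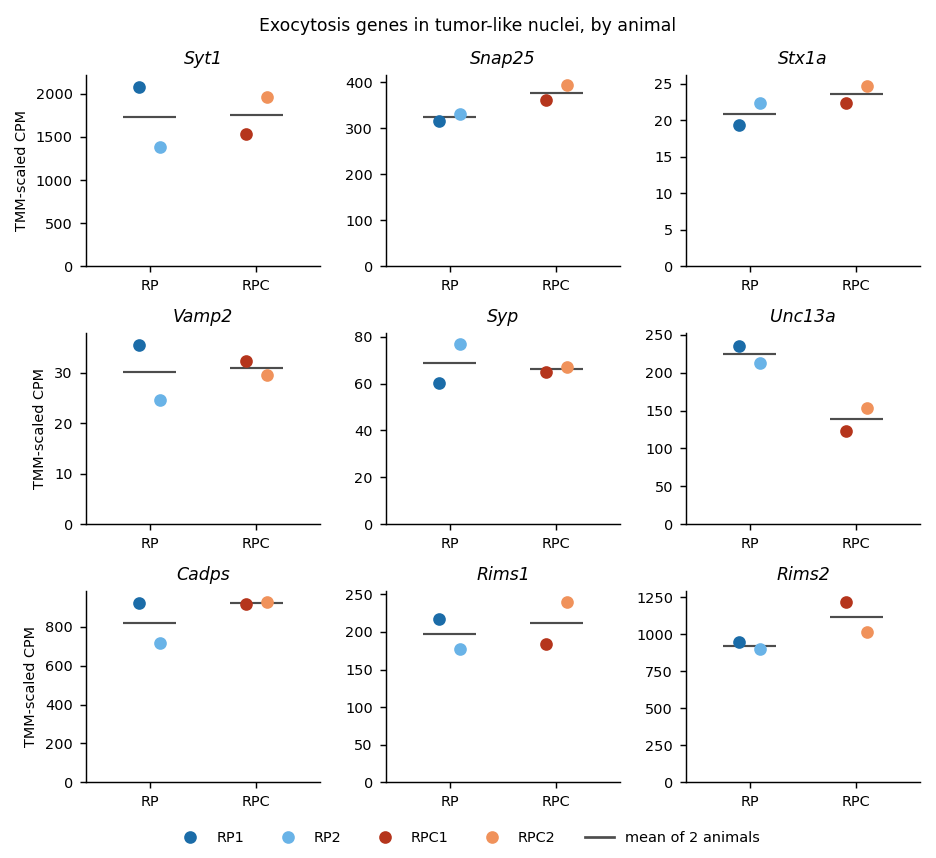
TMM-scaled CPM (vertical axis, from 0) of the 9 exocytosis genes in tumor-like nuclei of RP and RPC animals. Each point is 1 animal and each line the mean of 2. The genotypes were apart in Snap25, Rims2 and Unc13a, with RPC higher in Snap25 and Rims2 and lower in Unc13a, and overlapped in the other 6.

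Over the 9 members, edgeR called 0 of 9 between genotypes, as it called 0% of all 20108 genes tested. At an unadjusted p under 0.05 it named 1 member, Unc13a, and 15.1% of all genes, and DESeq2 called 0 of 9 members and 4.37% of 15321 genes. The animals were apart with RPC higher in 2 members, while 24.8% of all genes had this pattern, and apart with RPC lower in 1 member, while 25.5% of all genes had it. The median log2 fold change was 0.10 over the members and -0.01 over all genes. With 2 animals against 2, an exact permutation test of a single gene cannot go below a two-sided p of 0.33.

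Long genes give more counts in nuclei because unspliced RNA is captured along introns, so levels were compared between members only per kilobase of gene span. On this scale Vamp2, which spans 3.90 kb, was the highest at a mean of 7.83 CPM per kb, followed by Syp (4.55), Snap25 (3.86), Unc13a (3.77), Syt1 (3.39), Rims2 (2.08), Cadps (1.93), Stx1a (0.798) and Rims1 (0.418). Vamp2 at the top and Stx1a and Rims1 at the bottom held their places in all 4 animals. Between them the order changed: Unc13a was above Snap25 in both RP animals and below it and Syt1 in both RPC animals, and in RP1 it was also above Syp, Syt1 above Snap25 and Cadps above Rims2. Stx1a, the partner of Snap25 and Vamp2 in the SNARE complex, thus held the second lowest place. Per kilobase of merged exons the order was another one, led by Syt1 (135) and Rims2 (74.8), with Stx1a (6.90) the lowest and Vamp2 (7.83) next. The merged exons of Vamp2 cover its whole span, so its value is the same on both scales and its place is not.

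Shares of nuclei that held a transcript were taken after thinning each tumor-like nucleus to 1000 transcripts, because RPC nuclei were deeper. Thinning left 6314, 6478, 9072 and 8258 nuclei and removed 808, 769, 147 and 418 shallower ones. Syt1 was found in 68.8% to 82.0% of nuclei per animal, Rims2 in 57.3% to 69.1%, Cadps in 49.2% to 58.8%, Snap25 in 27.4% to 30.3%, Rims1 in 14.4% to 19.7% and Unc13a in 11.6% to 19.5%. The short genes were seen less often, with Syp in 5.27% to 7.53%, Vamp2 in 2.07% to 3.59% and Stx1a in 1.76% to 2.56% of nuclei. A median nucleus showed 3 of the 9 members in RP1, RPC1 and RPC2 and 2 in RP2, and no nucleus showed more than 7.

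Between genotypes the shares of Unc13a, Snap25 and Rims2 lay apart as their levels did. Among RP animals Unc13a was seen in 19.5% (exact binomial 95% interval 18.5 to 20.5) and 18.97% of nuclei (18.02 to 19.9), among RPC animals in 11.6% (10.9 to 12.3) and 14.01% (13.3 to 14.8). The intervals cover counting error only. The RP mean was 19.2% ± 0.382 and the RPC mean 12.8% ± 1.71 (SD, n = 2). Snap25 was seen in 27.6% ± 0.234 of RP and 30.01% ± 0.402 of RPC nuclei, and Rims2 in 57.9% ± 0.795 and 65.7% ± 4.88. Shares of Stx1a and Cadps were also higher in both RPC animals, but narrowly. Cadps was at 58.2% in RPC2 and 56.9% in RP1, and Stx1a at 2.20% in RPC2 and 2.16% in RP2, with overlapping intervals. Thus 4 members had thinned shares apart and higher in RPC and 1 had them lower, where 27.7% and 20.6% of all genes did (for all genes as the expectation of the thinning). Without thinning, 7 members were higher and 1 lower, Vamp2, Syp and Rims1 being added, and 53.9% and 6.77% of all genes were.

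**Figure D2:**
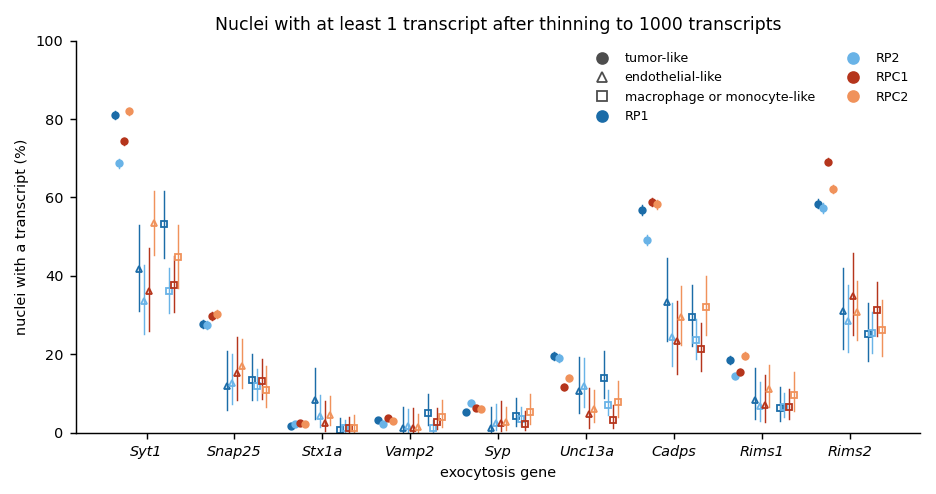
Percent of nuclei with at least 1 transcript of each exocytosis gene (vertical axis, 0 to 100) after thinning to 1000 transcripts, for tumor-like (filled circles), endothelial-like (triangles) and macrophage- or monocyte-like nuclei (squares) of the 4 animals, with 95% exact binomial intervals. Tumor-like shares of Syt1, Snap25, Syp, Unc13a, Cadps, Rims1 and Rims2 lay above both other classes in every animal, and those of Stx1a and Vamp2 did not.

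Technical spread inside an animal was read from the first-round barcoding wells, 4 in RP and 5 in RPC animals. Without TMM scaling the 2 wells of RP1 read 247 and 346 CPM for Snap25, a ratio of 1.40 within 1 animal, and 190 and 252 CPM for Unc13a, a ratio of 1.33. Vamp2 differed by up to 1.61 times, between wells of RPC1. Every RPC well lay above every RP well in 2 members, as in 14.5% of all genes, and below in 1 member, as in 6.72%: Unc13a, the lower one, ran from 184 to 252 CPM over RP wells and from 119 to 159 over RPC wells, Snap25 from 247 to 352 and from 360 to 400, and Rims2 from 789.5 to 998.1 and from 1015 to 1331. Wells of one animal are not replicates of a genotype, and each well held nuclei of 1 animal.

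The second comparison set mitotic against non-mitotic tumor-like nuclei of the same animal. Mitotic nuclei had at least 3 transcripts of 30 mitotic genes after thinning to 1000 transcripts, and non-mitotic nuclei had 0. The name mitotic stands for this rule alone, not for a measured phase of the cell cycle. By this rule 44.1%, 37.2%, 43.3% and 52.8% of the thinned tumor-like nuclei were mitotic. The mitotic class held 2782, 2412, 3927 and 4363 nuclei and the non-mitotic class 1477, 1825, 1851 and 1268. Mitotic nuclei were deeper, with medians from 2951 to 4218 transcripts against 2158 to 2818. In all, 6 members were lower in mitotic nuclei past the edgeR threshold: Snap25, Stx1a, Unc13a, Syt1, Rims2 and Cadps. None was higher. Among all 16621 genes tested, 15.8% were called lower and 13.3% higher, 29.1% in all. Also counted without a test, 6 members were lower in all 4 animals (Syp in place of Cadps), a pattern that 23.3% of all genes had.

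The plasma membrane SNAREs fell most. Snap25 had 272, 273, 326 and 348 CPM in mitotic nuclei, against 400, 402, 443 and 540 in the non-mitotic nuclei of the same animals. Every animal was lower, no mitotic value reached a non-mitotic one, and the fit gave -0.55 on the log2 scale (SE 0.05, edgeR adjusted p = 5.72e-07), which is 31.6% lower. Stx1a went from 21.5, 27.4, 22.7 and 33.6 CPM in non-mitotic to 17.3, 18.9, 20.8 and 22.6 in mitotic nuclei (log2 -0.38, SE 0.09, adjusted p = 0.00587). All 4 animals were lower, RPC1 by the least, and the values of the classes overlapped between animals.

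Unc13a fell by nearly the same amount in each tumor, from 260, 235, 130 and 177 CPM to 210, 193, 111 and 144 (log2 -0.28, SE 0.04, adjusted p = 2.93e-04). Its RPC levels in non-mitotic nuclei still lay below its RP levels in mitotic nuclei. Syt1 went from 2181, 1549, 1678 and 2372 CPM to 2043, 1221, 1468 and 1852, lower in all 4 animals (log2 -0.25, SE 0.05, adjusted p = 0.00198). Rims2 went from 1017, 967, 1285 and 1176 CPM to 904, 846, 1137 and 961, again lower in all 4 (log2 -0.21, SE 0.04, adjusted p = 0.00218).

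Cadps passed narrowly (log2 -0.15, SE 0.05, adjusted p = 0.0299) and was lower in 3 animals, whereas RP2 had 705 CPM in non-mitotic and 707 in mitotic nuclei. Leaving out RP1 ended this call (adjusted p = 0.112), and so did leaving out RPC1 (0.135), leaving out RPC2 (0.0848) or dropping the filter on low counts (0.116). Syp was lower in all 4 animals but did not pass (log2 -0.15, SE 0.06, adjusted p = 0.0715). Rims1 was lower in 3 animals and higher in RPC1, where it went from 164 to 186 CPM (log2 -0.10, SE 0.06, adjusted p = 0.237), and without RPC1 it passed (log2 -0.19, adjusted p = 0.0215). Vamp2 differed least, with 37.4, 25.03, 32.98 and 30.1 CPM in non-mitotic and 35.7, 25.1, 30.8 and 29.5 CPM in mitotic nuclei (log2 -0.05, SE 0.07, adjusted p = 0.631).

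**Figure D3:**
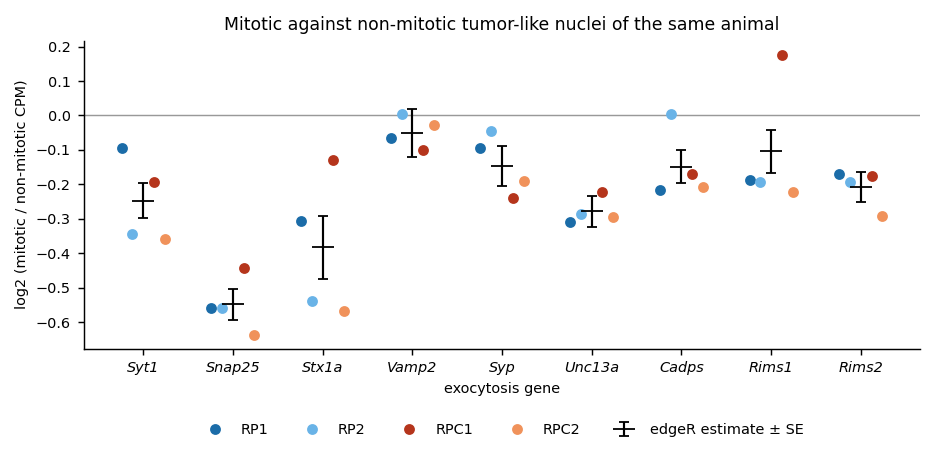
Log2 ratio of mitotic to non-mitotic CPM of each exocytosis gene (vertical axis, 0 is no difference), 1 point per animal, with the edgeR estimate and its SE in black. All 4 points lie below 0 for Syt1, Snap25, Stx1a, Syp, Unc13a and Rims2, with Snap25 between -0.64 and -0.44 and Vamp2 near 0.

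When both classes were restricted to nuclei of 1500 to 3000 transcripts, a setting chosen after seeing the data, 4 members were called lower, while 10.9% of all 12409 genes tested were. They were Syt1, Snap25, Unc13a and Rims2, whereas Stx1a (log2 -0.50, adjusted p = 0.0659) and Cadps (-0.18, 0.0874) no longer passed. The mitotic difference itself did not differ detectably between genotypes: the interaction test of edgeR called 0 of 9 members and 0 of 16621 genes, with 0 members and 848 genes at an unadjusted p under 0.05. For Snap25 the interaction was 0.02 (SE 0.09) on the log2 scale.

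Tumor-like nuclei formed 11 clusters. Most clusters came largely from 1 animal, which held 66.0% to 99.4% of a cluster's nuclei, so cluster and animal cannot be told apart. The clusters by animal with at least 100 nuclei gave 18 points. Snap25 ranged from 250 CPM in the cluster led by Nkain2 (RP1) to 624 CPM in 200 nuclei of RP2 in the cluster led by Gria1, where RPC2 also had its highest value, 532 CPM. The highest Snap25 value thus lay at the point with the fewest mitotic transcripts, and its Pearson correlation with the summed mitotic list, on log2 values, was -0.72 over the 18 points. Unc13a ranged from 109 CPM in the cluster led by Parpbp (RPC1, a point rich in mitotic transcripts) to 286 CPM in the RP1 nuclei of the cluster led by Luzp2. In that cluster, the only one with at least 100 nuclei of all 4 animals, Unc13a read 286, 235, 136 and 176 CPM, higher in both RP animals. The third of these values rests on 40 transcripts. Syt1 ranged from 1215 to 2235 CPM, Rims2 from 819 to 1379, Rims1 from 140 to 281 and Vamp2 from 24.02 to 44.3, the latter on 13 transcripts. Cadps was highest, at 1266 CPM, in the cluster of RPC1 led by Grik2 and other neuronal genes, where Snap25 was low, at 267 CPM. For Stx1a the ends, 8.66 and 44.6 CPM, each rested on 27 transcripts.

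**Figure D4:**
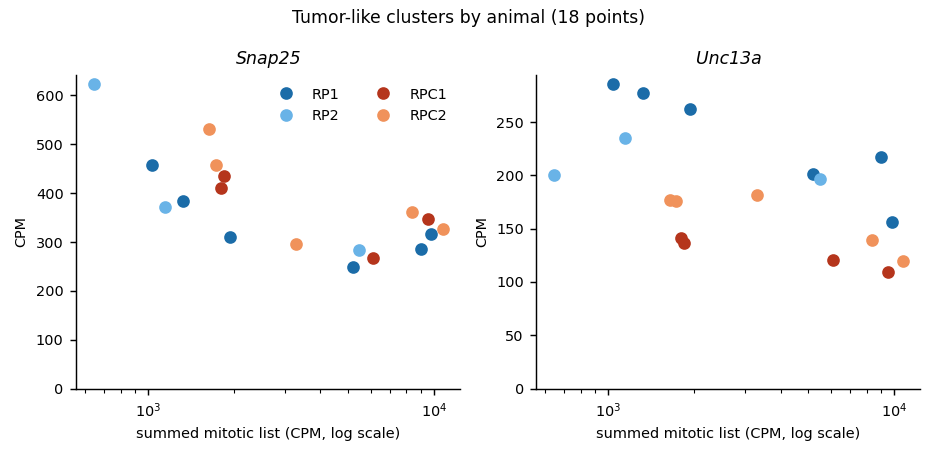
Levels of Snap25 and Unc13a (CPM, vertical axes from 0) against the summed CPM of 30 mitotic genes (log axis) in the 18 points of tumor-like cluster and animal. Snap25 falls from 624 CPM at the least mitotic point to at most 362 CPM in the points with 3298 CPM or more of mitotic genes, and at similar mitotic levels Unc13a lies lower in the points of RPC than in most of those of RP.

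The members did not move as one over these points. On log2 values, 3 of 36 pairs had a Pearson correlation of at least 0.5 (Syt1 with Cadps 0.65, Snap25 with Rims2 0.58, Syp with Rims2 0.53), 10 were below 0, and the median was 0.147. The points share animals, depth and the mitotic difference, so these values are descriptions. Among 7281 genes with a mean of at least 20 CPM, the most like Rims2 were Fam120c (r = 0.95) and Baz2b (0.95), the most like Snap25 were 2700054A10Rik (0.94) and Ints6l (0.91), and the most like Unc13a were Zdhhc14 (0.92) and Pitpnm1 (0.91). Syp was most like Jkamp (0.91) and Cyfip1 (0.88), Cadps like Ncbp3 (0.88) and Senp7 (0.79), Stx1a like Tmem150c (0.82) and Whrn (0.80), and Vamp2 like Capza2 and Bbs5 (0.81 each). Rims1 (Kcnb2 0.75, Dnaja2 0.71) and Syt1 (Asah1 0.71, Frmd3 0.70) had the weakest partners. No member was among the 2 genes most like another.

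Nuclei named for other cell types also held these transcripts, and in the summed counts the neuroendocrine markers were in them at a like share of their tumor level. In endothelial-like nuclei the animals' medians over the members were 69.9% to 81.3% of the tumor-like level of the same animal, and those over 15 neuroendocrine markers 73.0% to 81.9%. The ranges were 55.9% to 69.3% for members and 55.2% to 71.9% for neuroendocrine markers in macrophage- or monocyte-like nuclei, 59.9% to 82.6% and 66.0% to 82.4% in smooth muscle- or pericyte-like nuclei, and 35.0% to 61.1% and 35.9% to 60.6% in alveolar type 1-like nuclei. Club-like nuclei were at 23.7% in RP2 and 29.1% in RPC2 but at 75.5% in RPC1, where their median depth was 8600 transcripts against 3329 in tumor-like nuclei. Neuroendocrine markers in these club-like nuclei were at 81.9% in RPC1. Summed counts weigh deep nuclei most, and the clusters of a class differed. Against all other nuclei, the median log2 ratio of the neuroendocrine markers was -0.08 in the deep endothelial-like cluster (median 8304 transcripts). It was -1.05 and -0.77 in the shallower ones (1633 and 2031). In macrophage- or monocyte-like clusters it was -0.28 (9229 transcripts), -1.65 (2382) and -1.92 (2459). Tumor-like clusters themselves ran from -0.21 to 0.19 on this measure, a range that holds the deep endothelial-like cluster. The part of RNA carried over from tumor nuclei, and of nuclei sharing a barcode, in these levels was not tested. The thinned share of nuclei with a Syt1 transcript was 33.6% to 53.6% in endothelial-like and 36.1% to 53.1% in macrophage- or monocyte-like nuclei. In tumor-like nuclei it was 68.8% to 82.0%. Summed counts put Syt1 in endothelial-like nuclei at 60.4% to 78.1% of the tumor-like level, and at equal depth the part was smaller. Mean thinned counts were 0.798, 0.487, 0.640 and 0.980 in endothelial-like nuclei, against 2.02, 1.41, 1.62 and 2.03 in tumor-like nuclei. Median depth of the nuclei so counted was 2658 to 4905 transcripts in these classes and 2509 to 3369 in tumor-like nuclei.

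The lowest levels were in the 22 fibroblast-like nuclei of RPC2, the only animal with at least 20. They held 5 transcripts of Syt1, which is 3.56% of the tumor-like level, 4 each of Snap25 (14.2%) and Rims2 (5.51%), 8 of Cadps (12.1%) and 2 of Rims1 (11.7%), where the neuroendocrine markers had a median of 4.18%. Stx1a and Vamp2 had 2 transcripts each, too few to place them. Unc13a and Syp were at 0, which allows up to 27.4% and 62.5% of their tumor-like levels at 3 counts.

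Stx1a was above its tumor-like level in the vascular classes, where the medians of the other members were at or below 101%. In endothelial-like nuclei it had 43.7 CPM (exact Poisson 95% interval 26.7 to 67.6), 34.5 (22.7 to 50.1), 27.4 (16.96 to 41.9) and 30.4 CPM (22.3 to 40.6), on 20, 27, 21 and 46 transcripts, against 18.7 to 24.95 CPM in tumor-like nuclei. All 4 animals were above their tumor-like level, at a median of 139%, and the interval lay above it in RP1 and RP2. In smooth muscle- or pericyte-like nuclei Stx1a ran from 30.1 to 43.8 CPM, above the tumor-like level in all 4 animals at a median of 157%. In macrophage- or monocyte-like nuclei, by contrast, it was at a median of 63.4%, beside 68.2% for the neuroendocrine markers. In T or NK cell-like nuclei its median was 129%, but on 1 to 11 transcripts and with a range from 36.1% to 305%. Ciliated-like nuclei had 130% and 139% in the 2 animals with enough of them, on 10 and 8 transcripts. After thinning, Stx1a was seen in 8.33%, 4.20%, 2.33% and 4.58% of endothelial-like nuclei, on 2 to 7 nuclei per animal, against 1.76%, 2.16%, 2.56% and 2.20% of tumor-like nuclei. The share was higher in 3 animals and lower in RPC1.

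Vamp2 had medians of 94.9% to 104% of the tumor-like level in alveolar type 2-like, club-like, smooth muscle- or pericyte-like and B cell-like nuclei. In club-like nuclei the 3 animals ran from 36.7% to 99.9%. Of the alveolar type 2-like nuclei, 319 came from a cluster with nearly equal median log2 ratios of alveolar type 2 (1.39) and club markers (1.36). Vamp2 was at 87.5% in macrophage- or monocyte-like nuclei, where the neuroendocrine markers were at 68.2%. In endothelial-like (75.0%), T or NK cell-like (72.9%), alveolar type 1-like (54.6%) and ciliated-like nuclei (42.7%) it was nearer to the neuroendocrine markers (76.2%, 70.4%, 46.8% and 53.7%). It was highest in the shallow, unnamed nuclei rich in ribosomal RNA, with 65.2, 50.9, 116 and 86.4 CPM on 47, 31, 67 and 52 transcripts, at 190% to 347% of the tumor-like level. In these nuclei the medians of the other members were 26.1% to 90.01% and that of the neuroendocrine markers was 112%.

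**Figure D5:**
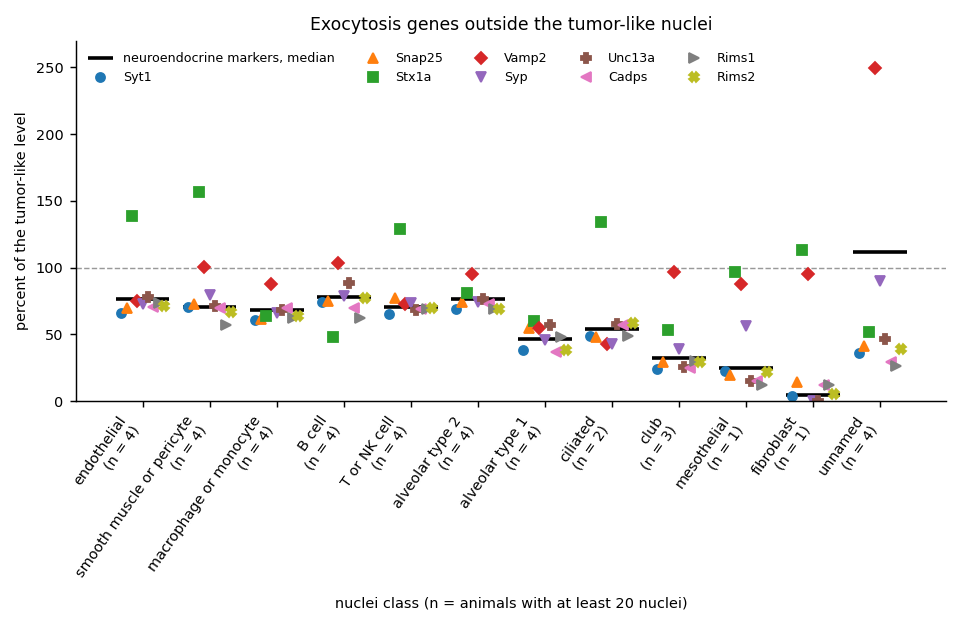
Level of each exocytosis gene (symbols) as percent of the tumor-like level of the same animal (vertical axis, median over the animals with at least 20 nuclei, dashed line at 100), by nuclei class. Black bars give the median of 15 neuroendocrine markers, which most members lie near in the 4-animal named classes but not in the unnamed nuclei, where the bar is at 112% and 7 members are between 26.1% and 52.0%. Stx1a is at 139% and 157% in the vascular classes and Vamp2 at 250% in the unnamed nuclei.

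Of 120 further genes of the exocytosis machinery, 118 were in the files and 108 were tested between genotypes. EdgeR called 0 of them, with 17 at an unadjusted p under 0.05, whereas 4 were called by DESeq2, beside 15.1% and 4.37% of all genes. The median log2 fold change was 0.05, against -0.01 over all genes. The largest log2 difference upward among the better expressed genes (average log2 CPM 3 or more) with the animals apart was that of Synpr, the gene of synaptoporin, a relative of Syp, at 20.7, 62.6, 148 and 124 CPM (log2 1.71, SE 0.52, adjusted p = 0.291 by edgeR and 0.0250 by DESeq2). Syt5 (log2 1.13) and the synapsin Syn3 (0.86) were next. At the other end were the widely expressed SNAREs Snap23 (28.05 and 33.04 CPM in RP, 15.8 and 17.7 in RPC, log2 -0.87, adjusted p = 0.272 by edgeR and 0.0407 by DESeq2) and Stx4a (-0.78), and the liprin Ppfia3 (-0.51). The vesicular amine transporter Slc18a1 (log2 0.69 by edgeR, DESeq2 adjusted p = 0.0414), named after its values were seen, was called by DESeq2 as well.

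In mitotic nuclei, 34 of 103 tested genes of this list were called lower and 8 higher, with a median log2 fold change of -0.13 against -0.01 over all genes, of which 15.8% were called lower and 13.3% higher. The group of Rab3 and Rab27 GTPases, their effectors and regulators of Rab proteins had 9 lower and 0 higher of 19. Among them were Rab3b (log2 -0.59, adjusted p = 3.81e-07), Rab27b (-0.57, 1.20e-05) and Rph3al (-0.55, 2.16e-06), each lower in all 4 animals. Synaptotagmins and other calcium sensors had 6 lower and 1 higher of 16, with Syt4 lowest (-0.79, adjusted p = 0.00715), though at 0.241 to 7.98 CPM and not lower in RP1. Active zone scaffolds went both ways, with 6 lower and 3 higher of 16. Rimbp2, which links RIM proteins to calcium channels, was lower in all 4 animals (-0.55, adjusted p = 2.67e-06), and Lin7a (0.82, 4.75e-05), Rims4 (0.63, 0.0277) and Ppfia2 (0.58, 0.00305) were higher in all 4. Vesicle membrane proteins had 5 lower and 3 higher of 18, among the latter Syngr4 (0.93, adjusted p = 0.00686). SNARE regulators had 4 lower and 1 higher of 14, the latter being Stxbp6 (0.79, adjusted p = 0.0144), other SNAREs 3 lower of 15, and the remaining priming factors 1 lower of 5. DESeq2 called 33 genes of the list, and Syngr4 (adjusted p = 0.0684), Rims4 (0.0586) and Stxbp6 (0.158) were not among them.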

How the data were processed

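Nuclei were barcoded by split-pool indexing (Parse Evercode). Per the methods of the study, the authors aligned reads to GRCm39 with Ensembl genes and assigned nuclei to animals by the Parse software. One deposited matrix per animal holds raw counts of transcripts per nucleus and gene, and the deposited lists of nuclei hold counts per nucleus and the barcoding wells. Of the 12 columns in these lists, 8 were not used. Strand use in counting is not given in the sources used here.

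As in the study, at least 300 counts, at most 10% from mitochondrial genes and at most 12000 genes were required of a nucleus. Nuclei were clustered with Leiden (resolution 0.4, 2000 variable genes, 20 principal components, 20 neighbors, seed 1; leidenalg 0.10.2, igraph 0.11.9, scikit-learn 1.9.0, Python 3.11.15) without any exocytosis gene, and named from 14 marker lists. Class names are rebuilt here, so they can differ from those of the study. No doublet caller was run; the study took nuclei above the gene limit as possible multiplets, and leaving out nuclei above 4 times the median depth was an alternative.

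Sums over the tumor-like nuclei of each animal, and of each animal and mitotic class, were tested with the two-sided quasi-likelihood test of edgeR 4.0.16 (R 4.3.3; TMM, filterByExpr, legacy form), the second with the animal as a block. Benjamini-Hochberg adjusted p under 0.05 over all genes tested was the threshold. SE was calculated back from the fold change and the F statistic. The scripts were tested on simulated data. DESeq2, the tool of the study and run here in version 1.42.0, other filters, other sets of nuclei, the replicate block and leaving out each animal were alternatives. The labels give no pairing of animals between the 2 genotypes. The RP1-RP2 and RPC1-RPC2 log2 differences had a correlation of -0.05 over 10174 genes, which cannot decide whether animals with the same replicate number are paired. Class and cluster levels are CPM without TMM scaling. Shares and mitotic classes used nuclei thinned to 1000 transcripts. Positions come from GENCODE on GRCm39.

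The members, lists, mitotic split and tests were chosen with earlier results of these data known. Named besides the members were, of 120 other exocytosis genes, in the mitotic comparison the 5 largest called rises and falls, and between genotypes, where none was called, the 3 largest rises and falls above the expression limit given in the text and with the animals apart, and for each member the 2 genes with the highest correlation over clusters by animal. Casp8 was named as context. Some listed genes are not reported here.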

Additional observations from a re-analysis of the deposited data

Results flagged for a closer look

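Values of 4 animals were examined for a single animal far from the others in 81 groups (9 mitotic differences and the class levels of members), and 5 were marked by Dixon's ratio of the gap to the range. Chance marks about 1 group in 20. The mitotic difference of Rims1 was 0.18 on the log2 scale in RPC1 against -0.22 to -0.19 in the other animals (ratio 0.917). Vamp2 in endothelial-like nuclei was at 147% of the tumor-like level in RP2 against 66.5% to 80.0% (ratio 0.831), on 11 to 36 transcripts. In nuclei like smooth muscle or pericytes Vamp2 was at 64.4% in RP2 against 99.4% to 104% (ratio 0.894), on 13 to 39 transcripts. Syt1 in T or NK cell-like nuclei was at 77.7% in RP1 against 63.7% to 65.9% (ratio 0.845), and Rims1 in alveolar type 2-like nuclei at 84.1% in RPC2 against 66.8% to 69.4% (ratio 0.849).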

How the results depend on the processing

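Between genotypes no member passed under any of 15 alternatives. Over all genes, 29 were called without the filter on low counts and 669 by DESeq2, and leaving out 1 animal gave 0 to 22, the 22 without RPC2; the cause was not tested. The replicate block called 0 genes and 0 members, and the labels do not say that the numbers pair the animals. The signs of Unc13a, Snap25, Rims2, Stx1a and Cadps held under all 15, though the log2 difference of Cadps was only 0.0030 without RP2. Smaller log2 differences turned. That of Syt1 was -0.0067 without the cluster led by neuronal genes and ran from -0.25 to 0.34 when 1 animal was left out (-0.25 without RP2, -0.15 without RPC2). Leaving out 1 animal gave -0.20 to 0.33 for Vamp2 (-0.20 without RP2, -0.02 without RPC1), -0.22 to 0.14 for Syp (0.14 without RP2) and -0.0742 to 0.2873 for Rims1 (-0.03 without RP2, -0.0742 without RPC2). Syp was at 0.0184 without the filter. In mitotic nuclei the signs of all 9 members held under 9 alternatives. Without the filter 2850 genes were called higher and 2003 lower, in place of 2204 and 2626, while the median log2 difference of all genes went from -0.01 to 0.16. Restricting depth to 1500 to 3000 transcripts, chosen after seeing the data, gave 2633 called genes, from fewer nuclei and fewer genes tested. Leaving out 1 animal gave 3675 to 4109 genes and 5 to 6 members. Without thinning, 8 members in place of 5 had shares apart between genotypes. Leaving out an animal moved the mean member level of 7 classes by less than the spread between animals. Any set of values of these animals would give this, so it checks nothing. With 2 animals per genotype, no member passed by either tool, and Stx1a, Vamp2 and Syp rest on few transcripts outside tumor-like nuclei.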
